A study of Mus musculus with 35 samples.

Results

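The genes described here are 37 genes of the unfolded protein response, the programme by which a cell answers misfolded protein in the endoplasmic reticulum (ER). They were listed by symbol and matched to the Ensembl identifiers of a table with 33292 genes, of which 23943 were above 0 in at least 1 mouse. All 37 were found, each at 1 identifier with reads. The list holds 11 ER chaperones and co-chaperones, 5 genes of disulfide bond formation and reduction, the 3 stress sensors, 3 transcription factors, 6 targets of the factors ATF4 and CHOP, 7 genes of ER-associated degradation, and 2 subunits of the translocation machinery. They were grouped by function.

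Unfolded protein is sensed in the ER membrane by IRE1alpha, PERK and ATF6, which are encoded by Ern1, Eif2ak3 and Atf6. IRE1alpha splices the mRNA of Xbp1 into the form that encodes an active transcription factor, ATF6 is cut to release its own, and PERK phosphorylates the initiation factor eIF2alpha, which lowers general translation while that of ATF4 rises. The factors raise chaperones, foldases and the machinery that exports misfolded protein to the proteasome, and ATF4 together with CHOP (encoded by Ddit3) raises genes of amino acid supply, of eIF2alpha dephosphorylation and of cell death. Podocytes, the cells that cover the glomerular capillaries with interdigitating foot processes, secrete basement membrane proteins and carry a large load of membrane glycoproteins. Bortezomib, an inhibitor of the proteasome, blocks the last step of ER-associated degradation.

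RNA was sequenced from podocytes of 35 mice in 6 groups, by 3 genotypes and 2 treatments. The control mice, labelled WT, were taken from the study's methods as Lmx1b+/lox, and the knock-in mice as Lmx1bH77L/lox and Lmx1bC118F/lox, with an exchange in the first (H77L) or second (C118F) LIM domain of the transcription factor LMX1B. All groups carried an rtTA transgene, tetO::Cre and the mT/mG reporter, were between 7 and 10 weeks of age, and drank 2 mg/ml doxycycline for 7 days. Doxycycline switched on Cre in podocytes, so that the floxed allele was removed in every group, the controls included. A control podocyte therefore kept 1 wild-type allele and a knock-in podocyte only the mutated one. Bortezomib at 0.3 µg per g of body weight, or its solvent DMSO, was injected intraperitoneally every other day. Each group had 6 mice except the bortezomib-treated C118F mice with 5, and each mouse gave its own library of green cells sorted by FACS. The sex of the mice was not used here.

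Levels are in TPM, which correct transcript counts for gene length and sum to 1000000 in each mouse. The TPM file holds no read totals. From the step that 1 read makes at low values, the depth of a mouse relative to the median mouse was estimated as 27.6% in replicate 2 of the bortezomib-treated C118F mice and between 72.6% and 126% in all others. The estimate is rough, since the exon lengths used are not those behind the TPM. Between 28.1% and 32.7% of the low values in a mouse came out as whole reads. Podocyte markers were present in every group. The sum of 15 of them had a median of 30977 TPM in control, 12250.5 TPM in H77L and 10110.5 TPM in C118F mice given DMSO, and 10 of the 15 were called lower in each knock-in line, while Cd2ap and Kirrel1 were called higher in H77L mice. Over all genes tested, 22.4% were called lower in H77L and 16.6% in C118F mice. Since fewer cells of a type and less RNA per cell cannot be told apart in bulk RNA, changes are given as shares of the RNA. Lmx1b itself had a median of 71.5, 119.8 and 104 TPM in these groups, a sum over both alleles that cannot check the exchanges.

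The chaperones and foldases of the ER were among the abundant mRNAs of control podocytes. In what follows, 3 TPM values for a group are its lowest, median and highest mouse. In the 6 control mice given DMSO, Calr, the lectin chaperone calreticulin, was at 1440.1, 1723 and 1886 TPM, Hspa5, which encodes the HSP70 chaperone BiP, at 1089, 1471 and 2305 TPM, and Pdia3, a disulfide isomerase acting on glycoproteins, at 1203, 1403 and 1545 TPM. These ranges overlapped, as did that of P4hb, the founding protein disulfide isomerase, at 1125, 1262 and 1329 TPM. The membrane-bound lectin calnexin (Canx), the stress protein gene Nupr1, the isomerases Pdia4 and Pdia6, and Hsp90b1, the HSP90 of the ER, had medians between 736 and 911 TPM. At the other end stood the sensor Ern1 with a median of 8.56 TPM, the asparagine synthetase gene Asns with 6.90 TPM, Derl3, a derlin known from secretory cells, with 1.26 TPM, the pseudokinase gene Trib3 with 0.819 TPM, and Chac1, which encodes a glutathione-degrading enzyme, with 0.0587 TPM. The sensors were thus expressed far below the chaperones, with medians of 38.0 TPM for Atf6 and 21.4 TPM for Eif2ak3.

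**Figure D1:**
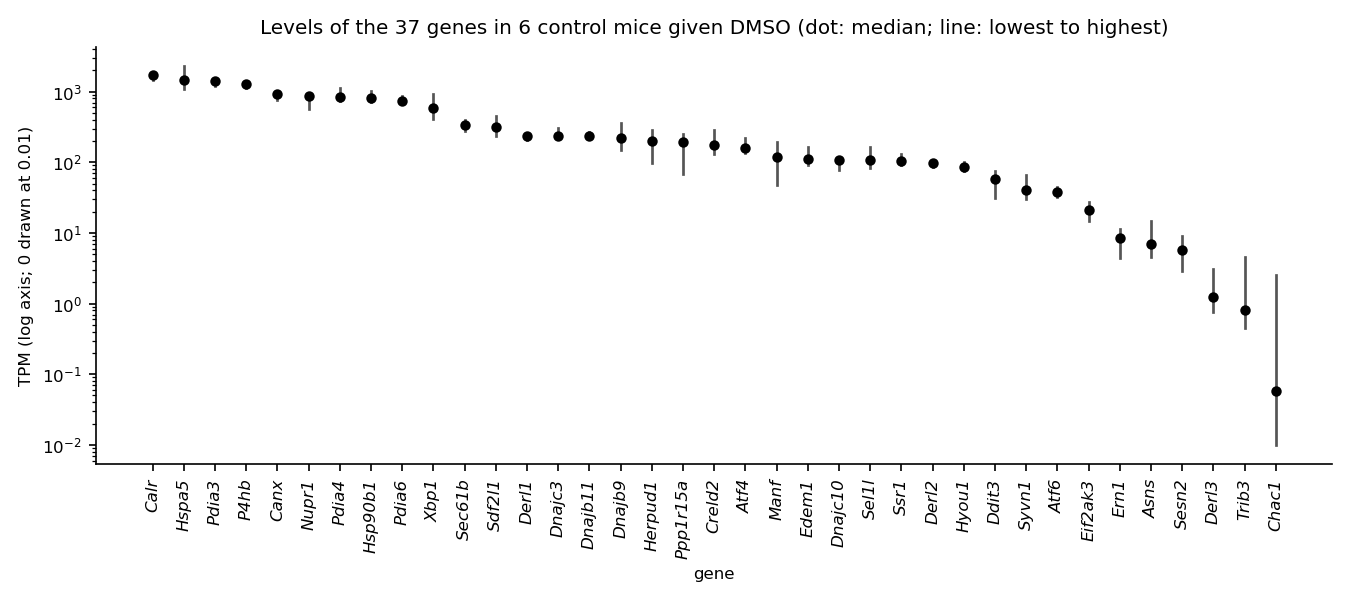
TPM of the 37 genes in the 6 control mice given DMSO on a log axis, ordered by the median (dot), with a line from the lowest to the highest mouse. Medians ran from 1723 TPM for Calr to 0.0587 TPM for Chac1, and the lines of neighbouring genes overlapped over most of the order.

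Sequences before the start of several of these genes match the elements through which the response was first defined. They are shown for 5 genes that the results turn on. The 250 bases before the start of the Ensembl canonical transcript of 21636 protein-coding genes were read from GRCm39 and searched on both strands. Other annotated transcripts of the 5 genes shown start further upstream, so the windows lie partly or wholly within the annotated span of the gene. The ER stress element (ERSE) was searched as CCAAT and CCACG with 9 bases between them, ERSE-II as ATTGG and CCACG with 1 base between them, the unfolded protein response element (UPRE) as TGACGTGG, and the C/EBP-ATF response element (CARE) as TGATGNAA. An ERSE was found before 9 of the 37 genes (Calr, Canx, Creld2, Derl3, Dnajc3, Hsp90b1, Hspa5, Pdia6 and Syvn1) and before 0.116% of all promoters, 25 in number. ERSE-II matched 3 of the genes (Herpud1, Hyou1 and Manf) against 0.0555% of all, UPRE only Hyou1, where it overlapped an ERSE-II, against 0.564%, and CARE matched Chac1, Ddit3 and Herpud1 against 3.40%. A match is a string of letters and not a proven site. Motif letters are in capitals in the sequences, which run 5′ to 3′ on the strand of the gene and end at the base before the start.
Hspa5: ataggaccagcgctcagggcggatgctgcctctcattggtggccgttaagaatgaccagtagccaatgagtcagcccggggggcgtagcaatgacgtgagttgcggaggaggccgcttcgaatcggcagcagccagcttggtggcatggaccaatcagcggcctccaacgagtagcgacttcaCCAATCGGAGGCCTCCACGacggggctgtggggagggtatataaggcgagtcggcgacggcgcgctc
Dnajc3: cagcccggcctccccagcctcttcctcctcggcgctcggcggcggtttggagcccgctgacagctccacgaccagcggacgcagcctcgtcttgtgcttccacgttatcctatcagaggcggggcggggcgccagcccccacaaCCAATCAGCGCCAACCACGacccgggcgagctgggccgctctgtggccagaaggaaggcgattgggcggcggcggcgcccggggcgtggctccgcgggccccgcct
Hsp90b1: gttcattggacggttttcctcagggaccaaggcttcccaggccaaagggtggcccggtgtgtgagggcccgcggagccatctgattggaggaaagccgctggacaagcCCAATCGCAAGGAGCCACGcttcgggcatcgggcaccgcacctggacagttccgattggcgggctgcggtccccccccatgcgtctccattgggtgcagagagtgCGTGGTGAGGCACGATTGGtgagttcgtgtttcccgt
Herpud1: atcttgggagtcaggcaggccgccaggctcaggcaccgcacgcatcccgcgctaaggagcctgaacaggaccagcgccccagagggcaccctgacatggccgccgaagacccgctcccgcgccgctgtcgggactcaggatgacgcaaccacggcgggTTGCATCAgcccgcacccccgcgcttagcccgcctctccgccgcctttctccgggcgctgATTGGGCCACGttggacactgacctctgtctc
Ddit3: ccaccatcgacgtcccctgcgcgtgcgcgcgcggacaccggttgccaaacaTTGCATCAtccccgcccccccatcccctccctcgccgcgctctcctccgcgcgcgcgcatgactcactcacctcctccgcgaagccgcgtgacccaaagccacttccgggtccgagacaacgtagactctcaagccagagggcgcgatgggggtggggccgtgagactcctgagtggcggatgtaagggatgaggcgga
These windows lie on chr2:34661854-34662103 (+ strand), chr14:119175095-119175344 (+ strand), chr10:86541379-86541628 (- strand), chr8:95112787-95113036 (+ strand) and chr10:127126310-127126559 (+ strand). Of the 14 genes called higher in a knock-in line given DMSO, 2 had an ERSE, 1 an ERSE-II and 2 a CARE, and 3 had an ERSE, ERSE-II or UPRE against 12 of all 37. Trib3, among the 14 and without a match, passed the TPM filter only through the C118F mice, which fixed its direction. The windows of Asns, Nupr1 and Trib3 also lie wholly within the annotated span of the gene. Bases before the outermost annotated start of these genes were therefore not searched, and a missing match does not show that an element is absent.

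**Figure D2:**
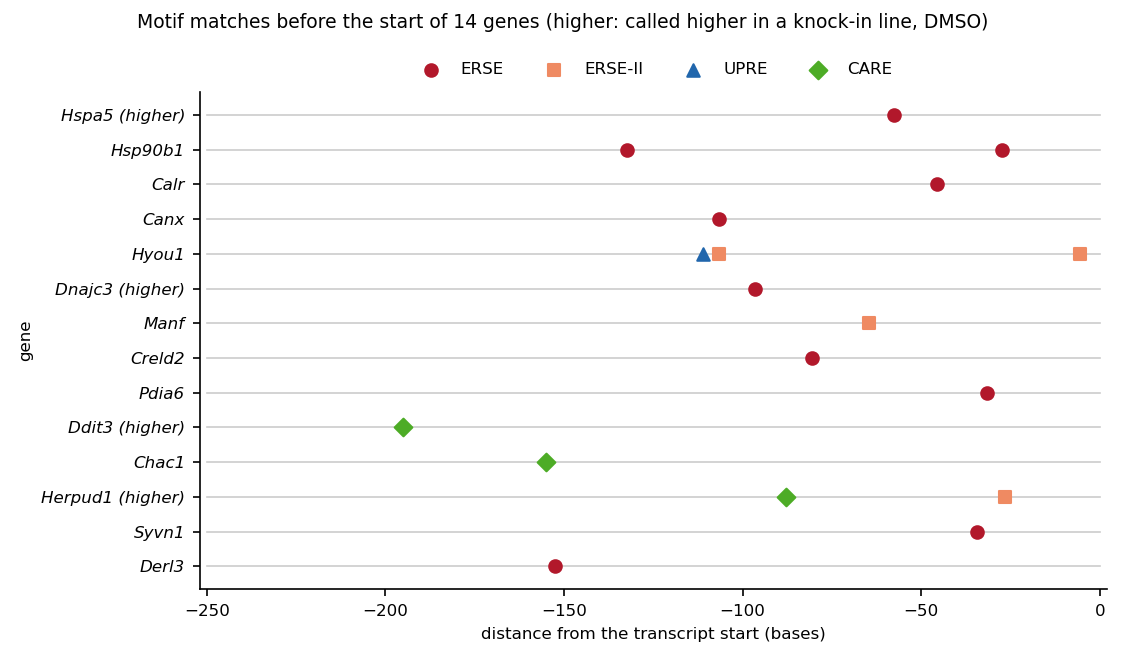
Positions of the motif matches in the 250 bases before the start (x axis, bases) for the 14 genes with a match (y axis), with a symbol for each motif. Hspa5, Dnajc3, Ddit3 and Herpud1, marked as higher, were called higher in a knock-in line given DMSO, while the 2 ERSE of Hsp90b1 and the single ones of Calr, Canx, Creld2, Pdia6 and Syvn1 stood before genes that were not.

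The first comparison asked what the exchanges in LMX1B did to these genes without bortezomib. A part of the response was higher in the knock-in podocytes: the chaperone gene Hspa5 with the co-chaperones Dnajc3 and Dnajc10, the ATF4 and CHOP genes Asns, Nupr1, Ppp1r15a and Ddit3, and the degradation gene Herpud1. Derl2, a further degradation gene, was lower, and the other abundant chaperones and isomerases were not called higher. Of 36 genes tested in H77L mice against controls, 12 were called higher and 3 lower by limma at an adjusted p under 0.05, where 22.4% of all 10964 genes tested were higher and 22.4% lower. In C118F mice 10 of 36 were called higher and 1 lower, where 13.7% of all 10899 genes were higher and 16.6% lower. Of the 10, Trib3 passed the filter only through the C118F mice, which fixed its direction, and is no part of what that count shows. The median log2 fold change was 0.20 in H77L and 0.34 in C118F mice, against -0.0099 and -0.064 over all genes tested. These medians include Derl3 and Trib3, which passed the filter only through the knock-in mice in both comparisons. Both lines were compared with the same 6 control mice, so the results of one do not stand apart from those of the other. The stricter cutoffs used in the study, an adjusted p under 0.001 with a log2 fold change beyond 2 in either direction, were met by none of the 37 genes, and by 2.17% and 2.27% of all genes tested.

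**Figure D3:**
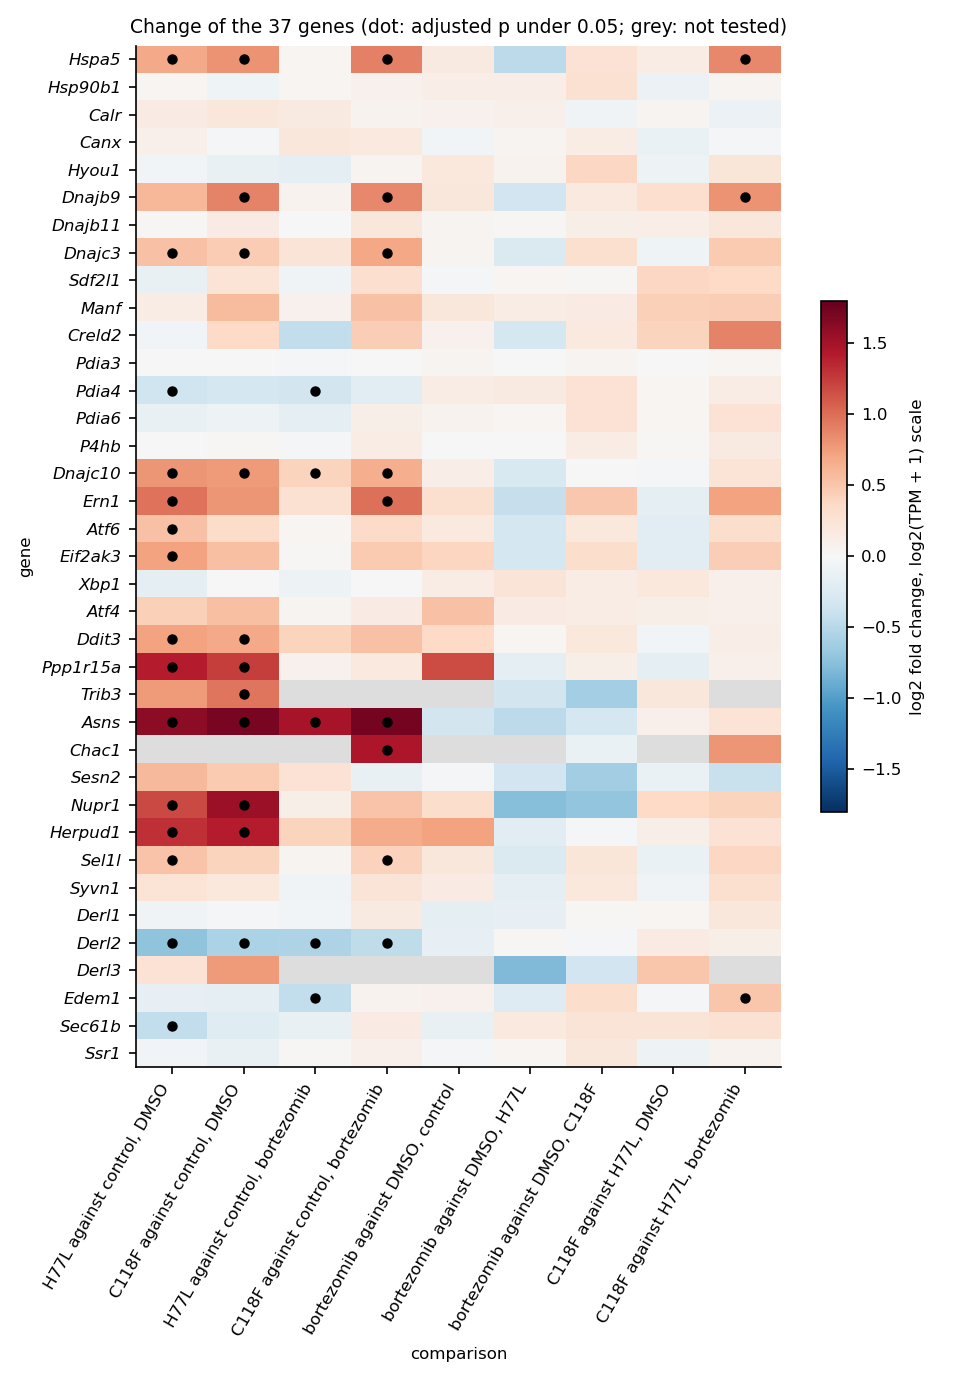
Colour gives the log2 fold change on the log2(TPM + 1) scale of each of the 37 genes (rows) in 9 comparisons (columns), a dot an adjusted p under 0.05 and grey a gene under the filter. Dots stand in the columns against control and, for Hspa5, Dnajb9 and Edem1, in C118F against H77L mice given bortezomib, and none stands in the columns of bortezomib against DMSO.

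Among the chaperones Hspa5 and Dnajc3 were called in both lines. Hspa5 was at 1089, 1471 and 2305 TPM in control, 1913, 2472 and 3005 TPM in H77L and 2094, 2636 and 3540.4 TPM in C118F mice. The ranges overlapped, since 2 control mice lay above the lowest mouse of each line. The log2 fold change, given with its standard error and limma's adjusted p, was 0.68 ± 0.19, adjusted p = 0.00902 in H77L and 0.81 ± 0.20, adjusted p = 0.00768 in C118F mice. The gene shares 2457 exon bases with Rabepk on the opposite strand, which had a median of 23.9 TPM over all mice and no higher estimate in either line (-0.40 ± 0.092, adjusted p = 0.00302 and -0.28 ± 0.11, adjusted p = 0.0710), and the counting is not stated to use strand. Dnajc3 encodes p58IPK, a BiP co-chaperone also known to inhibit PERK. It rose from 219, 238 and 307 TPM to 324, 368 and 376 TPM in H77L mice, with no overlap, and to 272, 339 and 421 TPM in C118F mice, whose lowest mouse lay within the control range (0.53 ± 0.089, adjusted p = 0.000291 and 0.46 ± 0.12, adjusted p = 0.0110). Dnajb9 encodes ERdj4, a co-chaperone that also represses IRE1alpha. It stood at 149.6, 221 and 363 TPM in control, 221, 384 and 555 TPM in H77L and 299.7, 462 and 636 TPM in C118F mice, and it was called in C118F (0.90 ± 0.22, adjusted p = 0.00689) but narrowly not in H77L mice (0.60 ± 0.24, adjusted p = 0.0509). A difference between the lines was not called for it (0.30 ± 0.22, adjusted p = 0.931).

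The other 8 chaperones were not called in either line. Hsp90b1, with 2 ERSE in the window printed above, had a log2 fold change of 0.03 in H77L mice (95% interval -0.25 to 0.31) and of -0.074 in C118F mice (95% interval -0.42 to 0.27). These intervals exclude a change of the size seen in Hspa5. Calr, Canx, the nucleotide exchange factor gene Hyou1 and the co-chaperone gene Dnajb11 had estimates between -0.14 and 0.20. Wider were the intervals of Manf, which encodes a secreted BiP-binding protein, with 0.57 (-0.10 to 1.24) in C118F mice, and of Creld2, a further secreted ER stress protein, with 0.35 (-0.15 to 0.86). Manf shares 3962 exon bases with Rbm15b on the same strand. By limma, Rbm15b was called higher in H77L (0.53 ± 0.18, adjusted p = 0.0266) and not in C118F mice (0.40 ± 0.19, adjusted p = 0.127). The part of shared reads in the values of Manf was not tested. In Sdf2l1, a partner of Dnajb11, the estimates were -0.14 in H77L and 0.24 in C118F mice.

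Among the 5 thiol-disulfide genes, Dnajc10 alone rose. It encodes ERdj5, a reductase that opens disulfide bonds of proteins bound for degradation. Its levels were 78.2, 108 and 119.7 TPM in control, 153, 189.6 and 206 TPM in H77L and 129, 179 and 228 TPM in C118F mice, and every knock-in mouse was above every control mouse (0.79 ± 0.11, adjusted p = 5.52e-05 and 0.77 ± 0.14, adjusted p = 0.000833). The 4 isomerases that form or rearrange the bonds did not rise. Pdia4 fell in H77L mice from 733, 847 and 1108 TPM to 541, 727 and 820.5 TPM, with overlapping ranges (-0.36 ± 0.13, adjusted p = 0.0352), a call lost in 8 of 18 alternatives. In C118F mice it was at 597, 701 and 926 TPM, and not called (-0.32 ± 0.14, adjusted p = 0.0967). Pdia3, Pdia6 and P4hb had estimates between -0.13 and 0.016, that of P4hb in H77L mice with a 95% interval of -0.19 to 0.18.

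The mRNAs of all 3 sensors were called higher in H77L mice. Ern1 was at 4.44, 8.56 and 11.3 TPM in control and 13.0, 16.5 and 19.1 TPM in H77L mice, without overlap (0.98 ± 0.19, adjusted p = 0.00110). For Eif2ak3 the values were 14.7, 21.4 and 27.0 TPM and 29.5, 34.4 and 42.4 TPM (0.72 ± 0.15, adjusted p = 0.00179), and for Atf6 31.9, 38.0 and 45.3 TPM and 50.0, 53.1 and 60.8 TPM (0.53 ± 0.10, adjusted p = 0.000616), again with every H77L mouse above every control mouse. C118F mice had medians much like those of H77L mice and spread more widely. Ern1 ran there over 6.52, 16.5 and 25.3 TPM, Eif2ak3 over 15.0, 32.4 and 47.8 TPM and Atf6 over 29.0, 49.9 and 73.8 TPM, so that the lowest mice lay inside or below the control range. None of the 3 was called in this line, with log2 fold changes of 0.79 ± 0.30, adjusted p = 0.0620, 0.54 ± 0.24, adjusted p = 0.110 and 0.34 ± 0.20, adjusted p = 0.216. The lines were not found to differ in any of them (adjusted p 0.948, 0.939 and 0.931 by limma).

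Of the transcription factors, Ddit3 was called in both lines. It was at 31.4, 57.1 and 74.8 TPM in control, 72.4, 89.6 and 112 TPM in H77L and 59.2, 86.8 and 136 TPM in C118F mice (0.73 ± 0.19, adjusted p = 0.00589 and 0.68 ± 0.24, adjusted p = 0.0439). The ranges overlapped, and the call in C118F mice was lost in 10 of 18 alternatives. Ddit3 shares 3576 exon bases, 64.1% of its annotated exons, with the tRNA synthetase gene Mars1 on the opposite strand. Mars1 was not called in either line (0.10 ± 0.11, adjusted p = 0.509 and -0.0031 ± 0.15, adjusted p = 0.990). Atf4 is controlled mainly at translation. Its mRNA was at 133, 159 and 221 TPM in control, 159, 211 and 379 TPM in H77L and 184, 206 and 448 TPM in C118F mice, just outside the threshold in both lines (0.43 ± 0.18, adjusted p = 0.0617 and 0.54 ± 0.20, adjusted p = 0.0525). Xbp1 was at 403, 592 and 909.9 TPM, 333, 592 and 629.6 TPM and 403, 633 and 809 TPM in the same order, with log2 fold changes of -0.18 ± 0.19, adjusted p = 0.471 and 0.0089 ± 0.19, adjusted p = 0.977. A gene-level TPM adds the spliced and unspliced forms, so the splicing by IRE1alpha was not measured, and Xbp1 shares 1526 exon bases with Ccdc117 on the opposite strand, which was lower in both lines (-0.64 ± 0.076, adjusted p = 1.31e-05 and -0.62 ± 0.14, adjusted p = 0.00358).

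The ATF4 and CHOP targets held the largest changes. Asns, which makes asparagine, was at 4.50, 6.90 and 14.9 TPM in control, 18.004, 22.3 and 58.1 TPM in H77L and 21.0, 23.96 and 48.2 TPM in C118F mice. Every knock-in mouse was above every control mouse, and the fitted rise was 3.06-fold in H77L and 3.27-fold in C118F mice (1.61 ± 0.28, adjusted p = 0.000420 and 1.71 ± 0.26, adjusted p = 0.000183). Nupr1, a small stress-induced nuclear protein, rose from 565, 853 and 963 TPM to 1082, 1645 and 4153 TPM and 1178, 2538 and 3598 TPM, also without overlap (1.19 ± 0.29, adjusted p = 0.00437 and 1.54 ± 0.24, adjusted p = 0.000232). Ppp1r15a encodes GADD34, which brings a phosphatase to eIF2alpha. It was at 68.2, 193 and 249 TPM in control, 282, 405 and 823 TPM in H77L and 183, 353 and 939 TPM in C118F mice (1.42 ± 0.31, adjusted p = 0.00225 and 1.25 ± 0.37, adjusted p = 0.0199). All H77L mice were above the controls, and 1 C118F mouse was among them.

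Of the remaining targets, Trib3 and Chac1 were near or under 1 TPM in controls. Trib3, a pseudokinase known to restrain ATF4, was at 0.452, 0.819 and 4.52 TPM in control and 1.12, 3.47 and 5.50 TPM in C118F mice and was called there (0.97 ± 0.34, adjusted p = 0.0437). It passed the filter only through the C118F mice, which had to be the higher group, and the call was lost in 11 of 18 alternatives. In H77L mice Trib3 was at 1.42, 2.26 and 10.2 TPM (0.76 ± 0.38, adjusted p = 0.121), and in that comparison it passed the filter only through the H77L mice. Chac1 did not pass the filter under DMSO, with 0, 0.0587 and 2.55 TPM in control, 0.728, 3.01 and 7.17 TPM in H77L and 0.367, 3.68 and 6.93 TPM in C118F mice. Sesn2, which encodes the stress-induced sestrin 2, was not called (0.58 ± 0.25, adjusted p = 0.0702 and 0.47 ± 0.30, adjusted p = 0.257).

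Of the 7 genes of ER-associated degradation, Herpud1 rose and Derl2 fell in both lines. Herpud1 encodes a membrane protein that assembles the HRD1 ubiquitin ligase complex, and its window printed above held a match to both ERSE-II and CARE. It was at 98.8, 199 and 288 TPM in control, 346, 435 and 623 TPM in H77L and 273, 514 and 627 TPM in C118F mice (1.32 ± 0.23, adjusted p = 0.000370 and 1.42 ± 0.26, adjusted p = 0.000832). Only the lowest C118F mouse lay below the highest control mouse. Sel1l, the partner of HRD1, rose in H77L mice from 83.3, 107 and 165 TPM to 147, 167 and 189 TPM (0.51 ± 0.15, adjusted p = 0.0118) and was at 104, 167 and 210.3 TPM in C118F mice (0.40 ± 0.20, adjusted p = 0.149). HRD1 itself, encoded by Syvn1, was not called, with log2 fold changes of 0.24 and 0.19.

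Derl2 encodes derlin 2, a membrane protein of the export channel. It was at 85.8, 96.5 and 109 TPM in control, 52.1, 58.5 and 62.5 TPM in H77L and 59.8, 63.2 and 71.6 TPM in C118F mice. Every knock-in mouse was below every control mouse (-0.72 ± 0.083, adjusted p = 1.09e-05 and -0.57 ± 0.10, adjusted p = 0.000459). Derl2 shares 394 exon bases with Mis12 on the opposite strand, which was lower as well (-0.74 ± 0.13, adjusted p = 0.000427 and -0.81 ± 0.12, adjusted p = 0.000183), and the part of shared reads in this was not tested. The related Derl1 had log2 fold changes of -0.064 (95% interval -0.23 to 0.10) and -0.023 (-0.23 to 0.18), and Derl3 of 0.26 and 0.77 at a few TPM. Derl3 passed the filter only through the knock-in mice, which fixed its direction. Edem1, a lectin that hands glycoproteins to degradation, was at 92.1, 111 and 162 TPM, 85.3, 109.7 and 119 TPM and 87.6, 101 and 137 TPM and not called (-0.14 ± 0.14, adjusted p = 0.410 and -0.18 ± 0.15, adjusted p = 0.397). Of the translocation genes, Sec61b, a subunit of the SEC61 channel, fell in H77L mice (-0.44 ± 0.12, adjusted p = 0.00865) and not detectably in C118F mice (-0.22 ± 0.19, adjusted p = 0.420), and Ssr1, a subunit of the translocon-associated complex, had estimates of -0.045 and -0.14.

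**Figure D4:**
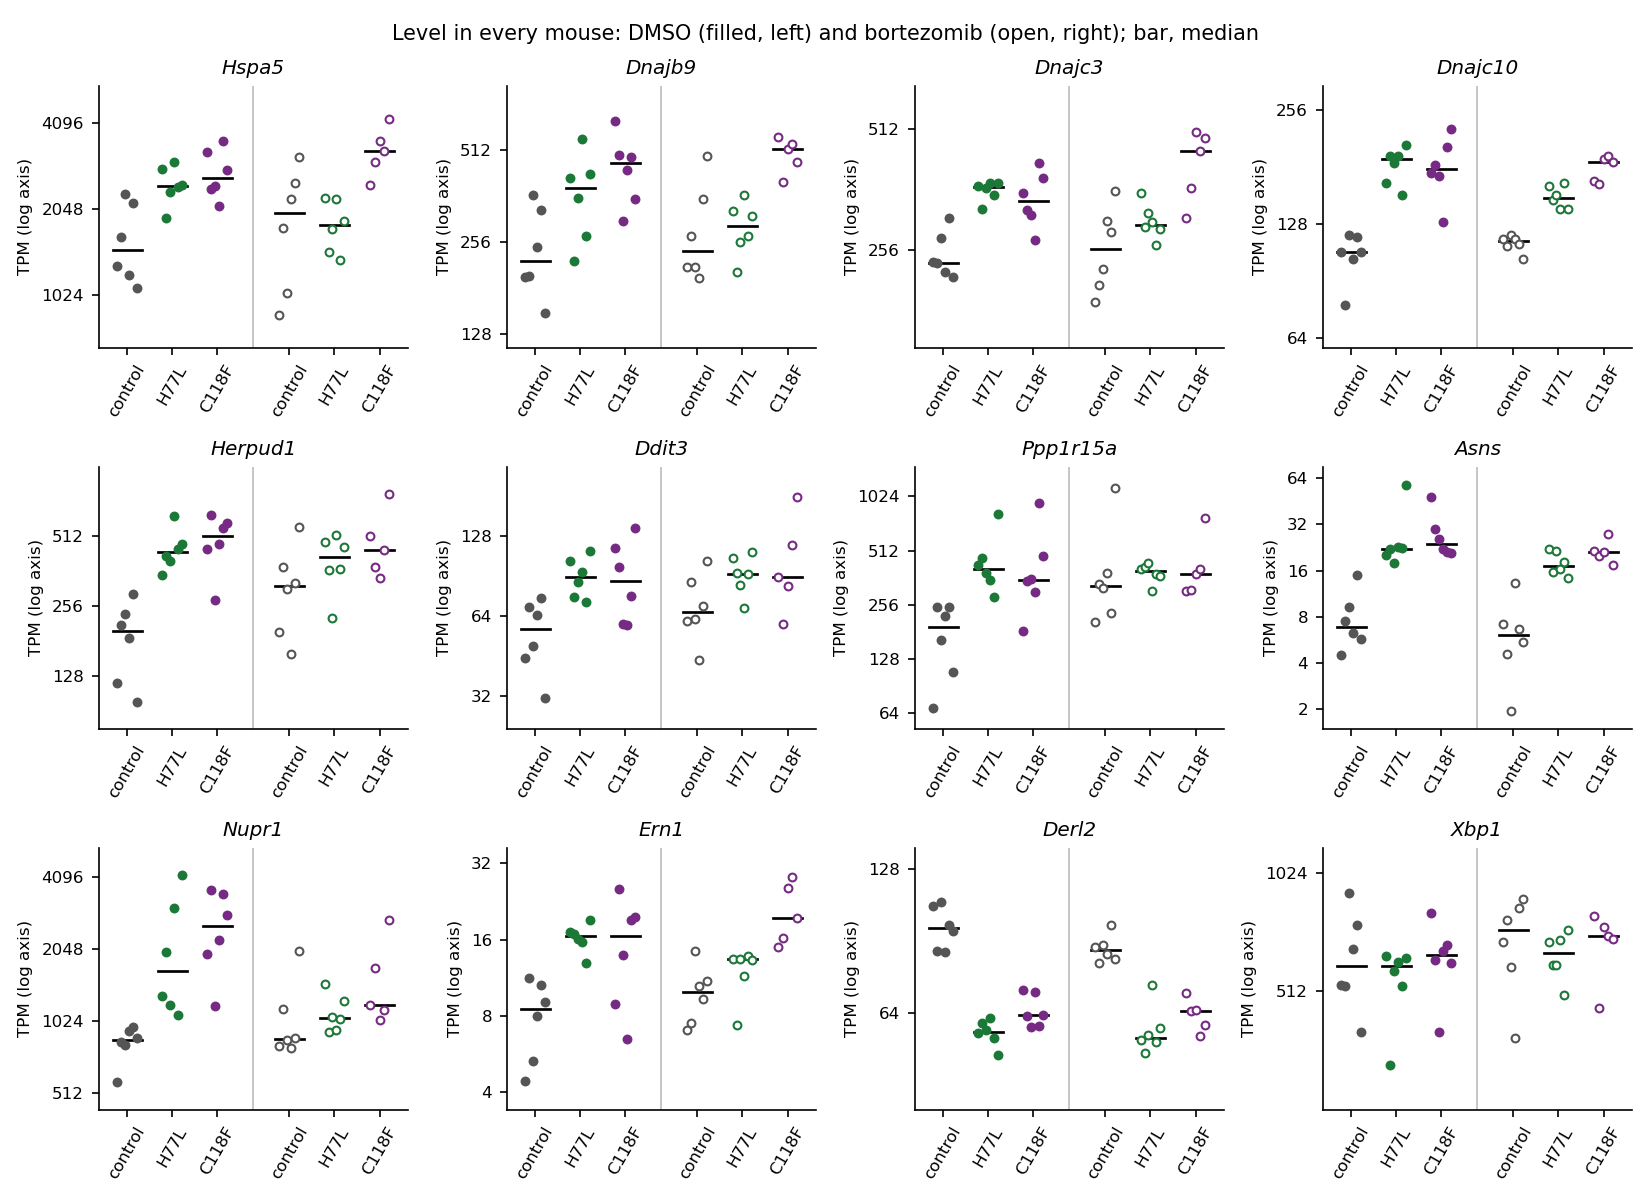
TPM of 12 of the genes on a log axis, 1 point for each mouse, filled for DMSO and open for bortezomib, with a bar at the median of each group. Asns and Dnajc10 were above all controls of the same treatment in both lines, Derl2 below them, and Hspa5 and Dnajb9 in bortezomib-treated C118F mice were above the H77L mice.

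Further genes of the same pathways, on lists that hold none of the 37 genes, were counted in the same fits. Their counts stand against the same shares over all genes, 22.4% higher and 22.4% lower in H77L mice and 13.7% higher and 16.6% lower in C118F mice. Of 28 tested genes of amino acid supply and tRNA charging under ATF4, 15 were higher and 2 lower in H77L mice, and 10 of 29 were higher and 2 lower in C118F mice. Psat1 and Phgdh, the enzymes of serine synthesis, and the cationic amino acid transporter gene Slc7a1 had the lowest p-values over both lines, with Psat1 at medians of 5.69, 35.8 and 37.4 TPM in control, H77L and C118F mice (log2 fold changes 2.41 ± 0.16, adjusted p = 4.22e-08 and 2.49 ± 0.17, adjusted p = 1.39e-07). Those of Phgdh were 2.00 ± 0.29, adjusted p = 8.14e-05 and 2.01 ± 0.28, adjusted p = 0.000103, and those of Slc7a1 1.20 ± 0.21, adjusted p = 0.000368 and 1.21 ± 0.20, adjusted p = 0.000348. Of 15 further stress targets of ATF4 and CHOP, 6 were higher and 2 lower in H77L and 4 higher and 1 lower in C118F mice. Among them the death receptor gene Tnfrsf10b (1.45 ± 0.25, adjusted p = 0.000308 and 1.16 ± 0.23, adjusted p = 0.00165) and Klhl24 (0.61 ± 0.16, adjusted p = 0.00642 and 0.51 ± 0.15, adjusted p = 0.0185) were called higher, and Vegfa, the endothelial growth factor that podocytes supply, fell (-1.07 ± 0.15, adjusted p = 6.65e-05 and -1.41 ± 0.31, adjusted p = 0.00382). Tnfrsf10b, with a control median of 0.818 TPM, passed the filter only through the knock-in mice. This fixed its direction, and it is no part of what these counts show.

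On the lists nearer to the ER itself, several counts were close to these shares, as for the degradation genes. Of the folding and oxidation genes, 10 of 35 were higher and 5 lower in H77L mice, and 10 of 36 were higher and 1 lower in C118F mice, with the thioredoxin-like genes Tmx1 (0.53 ± 0.11, adjusted p = 0.00165 and 0.53 ± 0.12, adjusted p = 0.00525) and Txndc12 (0.43 ± 0.10, adjusted p = 0.00366 and 0.53 ± 0.12, adjusted p = 0.00565) and the BiP exchange factor Sil1 (0.35 ± 0.077, adjusted p = 0.00201 and 0.38 ± 0.094, adjusted p = 0.00790) in front. Of 28 other degradation genes, 6 were higher and 2 lower in H77L and 4 higher and 1 lower in C118F mice. The ubiquitin ligase gene Rnf5 fell (-0.64 ± 0.08, adjusted p = 2.26e-05 and -0.57 ± 0.12, adjusted p = 0.00241), while Ubxn4, which recruits the p97 ATPase (0.48 ± 0.13, adjusted p = 0.00889 and 0.48 ± 0.13, adjusted p = 0.0135), and the conjugating enzyme gene Ube2g2 (0.30 ± 0.087, adjusted p = 0.0125 and 0.49 ± 0.13, adjusted p = 0.0105) rose. Translocation and ER exit counted 8 higher and 11 lower of 46 in H77L and 5 higher and 0 lower of 45 in C118F mice, where 11 of the 45 passed an unadjusted p under 0.05, as did 4476 of all 10899 genes. The coat subunit gene Sec24d (1.21 ± 0.28, adjusted p = 0.00332 and 1.21 ± 0.28, adjusted p = 0.00443), the retrieval receptor gene Kdelr3 (1.40 ± 0.44, adjusted p = 0.0188 and 1.74 ± 0.39, adjusted p = 0.00368) and Sec63 of the translocon (0.48 ± 0.073, adjusted p = 0.000130 and 0.36 ± 0.12, adjusted p = 0.0388) rose. Of 31 regulators of the response, 7 were higher and 5 lower in H77L and 3 higher and 3 lower in C118F mice. Eif2b2 and Eif2b5, subunits of the exchange factor that phosphorylated eIF2alpha inhibits, fell (-0.80 ± 0.087, adjusted p = 6.23e-06 and -0.78 ± 0.10, adjusted p = 5.07e-05, and -0.39 ± 0.079, adjusted p = 0.00119 and -0.49 ± 0.10, adjusted p = 0.00272), and Wfs1, an ER membrane protein mutated in Wolfram syndrome, rose (0.85 ± 0.13, adjusted p = 0.000102 and 0.72 ± 0.19, adjusted p = 0.00973).

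Some markers of other cells and of tissue handling differed between the genotypes as well, and their part in the changes above was not tested. Counts of markers called stand against 22.4% higher and 22.4% lower over all genes in H77L mice. In C118F mice these shares were 13.7% higher and 16.6% lower. The sum of 7 mesangial markers ran from 37.6 to 161 TPM in control, from 592 to 973 TPM in H77L and from 628 to 3200.2 TPM in C118F mice, most of it Des and Pdgfrb, while Gata3 and Itga8 had medians under 1 TPM in every group. The share of each marker in the highest C118F mouse is not given here. Acta2, also on this list, was not called in H77L (2.34, adjusted p = 0.0772 by limma) or C118F mice (2.92, adjusted p = 0.0645). It passed the filter only through the knock-in mice. Tubule markers summed to medians of 3906, 9309 and 8522 TPM, nearly all of it Gpx3, with medians of Lrp2 and Slc5a2 under 1 TPM in both knock-in lines. Of 7 tubule markers tested in H77L mice Gpx3 and Cubn were called higher and the other 5 had negative estimates, and of 6 tested in C118F mice Gpx3 was called higher and Kap lower. Cubn passed the filter only through the H77L mice, and Fxyd2, Kap, Slc34a1 and Umod only through the controls, which fixed their directions. Leukocyte markers summed to medians of 31.0, 5.36 and 13.6 TPM, with Ptprc at or near 0, and were at 557 TPM in replicate 1 of the controls, without which 15 genes were called in H77L and 10 in C118F mice. Only Cd74 and Lyz2 of these markers were tested, and Cd74 was not called. Lyz2 was called lower in C118F (-3.00, adjusted p = 0.0361 by limma) and not in H77L mice (-2.67, adjusted p = 0.0614). It passed the filter only through the controls, which fixed its direction. Parietal cell markers had medians of 65.6, 172 and 158 TPM, with Pax2 at 0 or near it, and all 4 that were tested (Akap12, Cd44, Cldn1 and Pax8) were called higher in both lines. Of these, Cd44 passed the filter only through the knock-in mice, which fixed its direction. Endothelial markers had medians of 20.9, 21.4 and 24.3 TPM. Of 6 plasma cell markers, which include Derl3, the sums stayed at or below 13.1 TPM, and Mzb1 and Tnfrsf17 had medians of 0. Of 16 immediate early genes known to rise during tissue dissociation, 5 were higher and 1 lower in H77L and 3 higher and 1 lower in C118F mice, and of 14 cytosolic heat shock genes 4 were higher and 0 lower in each. The sum of the immediate early genes was lowest in replicates 1 and 6 of the controls and in replicate 1 of the C118F mice, which also held the highest mesangial sum. With 1 of these controls left out, 15 genes were called in H77L mice and 10 or 9 in C118F mice, and 13 were called in C118F mice without their replicate 1. Mouse numbers of the labels were lower in the controls, with a median of 46512.5, than in H77L and C118F mice, with 48202.5 and 47411.5. Adjusted for the number, 9 genes were called in H77L mice, where Hspa5, Eif2ak3, Ddit3, Nupr1, Sel1l and Pdia4 lost their calls, and Dnajc3, Ddit3 and Ppp1r15a lost theirs in C118F mice. What the number stands for is not stated in the labels, and its part in the differences cannot be told apart from that of the genotype.

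The next question was how the knock-in lines differed from controls when all received bortezomib. Asns and Dnajc10 were again higher and Derl2 lower in both lines, whereas Hspa5, Dnajb9, Dnajc3, Ern1 and Sel1l were called higher in C118F and not in H77L mice, which is no test of a difference between the lines. In H77L mice 2 of 34 genes tested were called higher and 3 lower, where 12.5% of all 10805 genes were higher and 11% lower. C118F mice had 8 of 35 higher and 1 lower, where 15.1% of all 10916 genes were higher and 12.4% lower. Of the 8, Chac1 passed the filter only through the C118F mice, was not tested in H77L mice and is no part of what that count shows. The medians over the genes were 0.03 in H77L and 0.20 in C118F mice, against -0.013 and 0.0034 over all genes. The 5 C118F mice are listed singly below.

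Asns was at 1.95, 6.07 and 13.2 TPM in control and 14.3, 17.3 and 22.2 TPM in H77L mice, and at 17.4, 20.0, 21.1, 21.4 and 27.7 TPM in the C118F mice, each knock-in mouse above each control mouse (1.48 ± 0.28, adjusted p = 0.000862 and 1.72 ± 0.30, adjusted p = 0.000645). Dnajc10 was at 103, 115 and 119.9 TPM in control, 140.0, 150.3 and 164 TPM in H77L and 164, 166, 187, 191 and 194 TPM in C118F mice, again with no overlap (0.40 ± 0.07, adjusted p = 0.000448 and 0.66 ± 0.085, adjusted p = 4.77e-05). Derl2 was at 81.3, 86.5 and 97.7 TPM in control, 52.8, 56.8 and 73.2 TPM in H77L and 57.2, 60.2, 64.5, 65.1 and 70.4 TPM in C118F mice (-0.56 ± 0.087, adjusted p = 0.000171 and -0.45 ± 0.09, adjusted p = 0.00171), once more without overlap. In each of the 3 genes the knock-in mice lay on the same side of the controls as under DMSO. All of their calls against bortezomib-treated controls held under each alternative tried other than the study's cutoffs.

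In the bortezomib-treated H77L mice, Hspa5 was at 1357, 1808 and 2242 TPM, within the range of the controls at 873, 1988 and 3108 TPM (0.033 ± 0.27, adjusted p = 0.949, 95% interval -0.53 to 0.60). In C118F mice it was at 2482, 3003, 3259.9, 3535 and 4243 TPM, overlapping the 2 highest controls (0.90 ± 0.29, adjusted p = 0.0327), and this call was lost in 9 of 17 alternatives. Dnajb9 was at 194, 239 and 487 TPM in control, 203, 289 and 363 TPM in H77L and 400.0, 466, 514, 535 and 564 TPM in C118F mice (0.057 ± 0.20, adjusted p = 0.881 and 0.86 ± 0.21, adjusted p = 0.00683). The control mice spread widely in both genes, and their highest, replicate 6, lay among the C118F mice in each. Dnajc3 was at 189.9, 257 and 359.8 TPM in control, 263, 296 and 355 TPM in H77L and 308, 366, 451, 488 and 505 TPM in C118F mice (0.23 ± 0.14, adjusted p = 0.243 and 0.70 ± 0.17, adjusted p = 0.00792). Ern1 was at 7.04, 9.95 and 14.5 TPM in control, 7.35, 13.4 and 13.8 TPM in H77L and 15.0, 16.3, 19.5, 25.5 and 28.3 TPM in C118F mice (0.27 ± 0.18, adjusted p = 0.334 and 0.99 ± 0.21, adjusted p = 0.00244), and there each C118F mouse exceeded each control mouse. After adjustment for the mouse number 5 genes were called in C118F mice, and Hspa5, Dnajb9, Dnajc3, Ern1 and Sel1l were not. Without replicate 2, estimated to be shallow, 10 were called.

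Sel1l was at 103, 139.8 and 159.8 TPM in control, 118.2, 139 and 171 TPM in H77L and 139, 178, 192, 195 and 196 TPM in C118F mice (0.043 ± 0.11, adjusted p = 0.830 and 0.41 ± 0.12, adjusted p = 0.0243), and its call was lost in 7 of 17 alternatives. Chac1 was at 0 in most bortezomib-treated controls (0, 0 and 0.781 TPM), at 0.354, 0.821 and 2.16 TPM in H77L and at 1.22, 2.10, 2.12, 2.92 and 3.84 TPM in C118F mice. It passed the filter only through the C118F mice, so that the direction was set (1.46 ± 0.26, adjusted p = 0.000699). Pdia4 was lower in H77L mice, at 667, 790.2 and 894 TPM against 845, 957 and 1221 TPM in control, and it was at 802, 841, 847, 863 and 924 TPM in C118F mice (-0.33 ± 0.10, adjusted p = 0.0270 and -0.19 ± 0.11, adjusted p = 0.207). Edem1 was at 97.8, 129 and 142 TPM in control and 79.3, 91.6 and 98.1 TPM in H77L mice, where only the highest H77L mouse reached the range of the controls (-0.44 ± 0.10, adjusted p = 0.00332). Ppp1r15a, Nupr1 and Herpud1, called in both lines under DMSO, were not called against bortezomib-treated controls, and the intervals were wide. The estimates were, for Ppp1r15a 0.084 (-0.55 to 0.72) in H77L and 0.18 (-0.61 to 0.96) in C118F mice, for Nupr1 0.11 (-0.31 to 0.54) and 0.52 (-0.069 to 1.11), for Herpud1 0.41 (-0.15 to 0.96) and 0.67 (0.065 to 1.28).

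**Figure D5:**
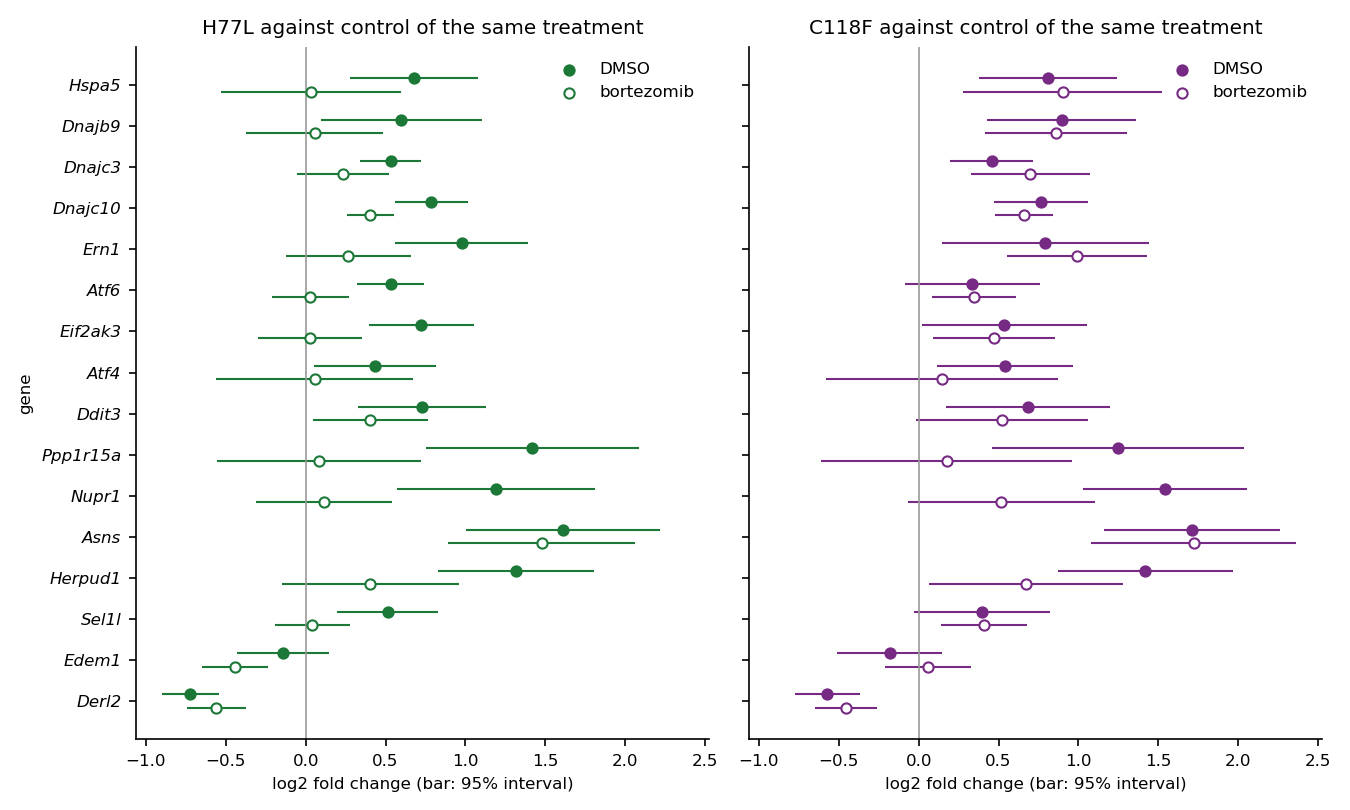
Log2 fold change (x axis, with a bar for the 95% interval) of 16 genes in H77L (left) and C118F mice (right) against control mice of the same treatment, filled for DMSO and open for bortezomib. In H77L mice the open points of Hspa5, Atf6, Eif2ak3 and Ppp1r15a lie between 0.026 and 0.084, and that of Asns at 1.48.

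The other lists of the pathways, counted in the same fits, stand against shares over all genes of 12.5% higher and 11% lower in H77L mice and of 15.1% higher and 12.4% lower in C118F mice. Amino acid supply under ATF4 had 9 higher and 1 lower of 28 in H77L mice and 9 higher and 2 lower of 27 in C118F mice. Folding and oxidation had 8 higher and 1 lower of 37, and 14 higher and 1 lower of 37. Translocation and ER exit had 5 higher and 2 lower of 46 in H77L mice, and 12 higher and 0 lower of 46 in C118F mice, where 13 of the 46 passed an unadjusted p under 0.05, as did 4201 of all 10916 genes. In the other stress targets of ATF4 and CHOP 1 was higher and 1 lower of 14 in H77L mice, and 1 higher and 2 lower of 15 in C118F mice. The higher gene was Tnfrsf10b in both. With a control median of 0.940 TPM it passed the filter only through the knock-in mice and is no part of what these counts show. The 28 other degradation genes had 2 higher and 1 lower in H77L and 5 higher and 1 lower in C118F mice, and the 31 regulators 4 higher and 2 lower, and 3 higher and 3 lower. Podocyte markers summed to medians of 29019.6 TPM in control, 14259 TPM in H77L and 13060.3 TPM in C118F mice, and immediate early genes to 61659, 42847 and 39311 TPM. Of the latter, 0 were higher and 3 lower in H77L and 0 higher and 6 lower in C118F mice. Cytosolic heat shock genes had 7 higher of 14 in H77L and 3 higher in C118F mice, and 0 lower in both. For all of these markers their part in the values above was not tested.

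Bortezomib was also compared with DMSO within the controls. There, Ppp1r15a was at 68.2, 193 and 249 TPM under DMSO and at 205, 326 and 1147 TPM under bortezomib (1.17 ± 0.39, adjusted p = 0.560), Herpud1 at 98.8, 199 and 288 TPM and 159.7, 313 and 557 TPM (0.72 ± 0.29, adjusted p = 0.560). Nupr1 had a bortezomib-treated control median of 860.1 TPM and was at 918, 1054 and 1458 TPM in H77L and 1029, 1139, 1188, 1702 and 2708 TPM in C118F mice. No gene of the list, and 0% of all 10659 genes tested, passed an adjusted p under 0.05 by limma in control mice given bortezomib against DMSO. At an unadjusted p under 0.05 there were 3 of 34 genes, against 8.66% of all genes tested. In replicate 6 of these controls Ppp1r15a was at 1147 TPM and Atf4 at 697 TPM, against 384 and 237 TPM in the next mouse. Without it, 8 genes were called in H77L mice under bortezomib in place of 5, and 13 in C118F mice in place of 9. Atf4 was otherwise at 183, 243 and 325 TPM in H77L and 153, 223, 280.5, 336 and 374 TPM in C118F mice, Ddit3 at 43.7, 66.0 and 103 TPM in control, 68.4, 92.1 and 111 TPM in H77L and 59.8, 82.5, 89.7, 118.1 and 178 TPM in C118F mice, and Xbp1 at 389, 730.3 and 878 TPM, 499.7, 639.5 and 732 TPM and 464, 695, 707, 745 and 793 TPM.

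The effect of bortezomib within a knock-in line was not called for any of the 37 genes. In H77L mice, 0 of 36 passed an adjusted p under 0.05 in limma, where 1.16% of all 10813 genes did, and 10 of 36 an unadjusted p under 0.05, where 20% of all genes did. The nearest were Hspa5 (-0.48 ± 0.14, adjusted p = 0.0887), Dnajc3 (-0.26 ± 0.074, adjusted p = 0.0851), Atf6 (-0.32 ± 0.095, adjusted p = 0.0882), Derl3 (-0.80 ± 0.24, adjusted p = 0.0900) and Dnajc10 (-0.27 ± 0.08, adjusted p = 0.0900), all with a lower estimate under bortezomib. Of these, Derl3 passed the filter only through the DMSO-treated mice, which fixed its direction, and it is no part of what these counts show. Without replicate 1 of the bortezomib-treated H77L mice 3 genes were called, and without replicate 5 of the DMSO-treated ones 1 was. In C118F mice, 0 of 37 passed the adjusted threshold, as did 0% of all 10814 genes, and 3 of 37 the unadjusted one, where 5.86% of all did. There the estimate for Hspa5 was 0.26 ± 0.18, adjusted p = 0.819. The difference of the bortezomib response between a line and the controls was tested as an interaction. It was called for 0 of 36 genes in H77L and 0 of 37 in C118F mice, as for 0% of all genes. An unadjusted p under 0.05 was reached by 9 genes in H77L mice, where 18.2% of all genes reached it, and by 1 in C118F mice, where 5% did. In H77L mice these differences were -1.33 ± 0.47, adjusted p = 0.139 for Ppp1r15a, -1.08 ± 0.38, adjusted p = 0.138 for Nupr1, -0.70 ± 0.22, adjusted p = 0.117 for Eif2ak3 and -0.50 ± 0.15, adjusted p = 0.101 for Atf6. Both the response of the H77L mice and that of the controls enter these values.

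Finally, the lines were compared with each other. Under DMSO 0 of 36 genes, and 0% of all 10809, differed at an adjusted p under 0.05 by limma, and 1 of 36 reached an unadjusted p under 0.05, where 3.85% of all genes did. That gene was Sdf2l1 (0.38 ± 0.15, adjusted p = 0.931), chosen here after its values were seen. Under bortezomib 3 of 35 were called higher in C118F than in H77L mice and none lower, where 0.713% of all 10803 genes were higher and 0.259% lower. Hspa5 was at 2482, 3003, 3259.9, 3535 and 4243 TPM in C118F against 1357, 1808 and 2242 TPM in H77L mice, every C118F mouse above every H77L mouse (0.87 ± 0.16, adjusted p = 0.0207). Dnajb9 was at 400.0, 466, 514, 535 and 564 TPM against 203, 289 and 363 TPM (0.80 ± 0.14, adjusted p = 0.0145), also without overlap. Edem1 was at 106, 112, 134, 146 and 147 TPM against 79.3, 91.6 and 98.1 TPM (0.50 ± 0.10, adjusted p = 0.0291). The next in order were Creld2 (0.89 ± 0.20, adjusted p = 0.0526), Ern1 (0.72 ± 0.19, adjusted p = 0.0951) and Dnajc3 (0.47 ± 0.12, adjusted p = 0.0992), which did not pass. All 3 calls were lost after adjustment for the mouse number, with all 35 mice in 1 fit and without the filter on low values. The mouse numbers of these C118F mice had a median of 50091, and those of the H77L mice of 47992. Cytosolic heat shock genes went the other way. Their sum of 14 had a median of 8242 TPM in H77L and 4863 TPM in C118F mice, and 3 of 14 were called lower in C118F mice. The interaction of line and treatment was called for 0 of 37 genes, as for 0% of all 11046, and 6 of 37 reached an unadjusted p under 0.05, where 7.6% of all genes did. It was -0.74 ± 0.23, adjusted p = 0.650 for Hspa5, -0.51 ± 0.28, adjusted p = 0.650 for Dnajb9 and -0.54 ± 0.16, adjusted p = 0.650 for Edem1, as the response of H77L minus that of C118F mice, so a difference in the response to bortezomib was not shown.

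Mice of the same group differed far more in some of the genes than in others. The pooled standard deviation of log2(TPM + 1) within groups was 0.695 for Trib3, 0.688 for Chac1, 0.656 for Ppp1r15a, 0.603 for Manf, 0.573 for Derl3, 0.537 for Nupr1, 0.509 for Asns, 0.502 for Atf4, 0.491 for Herpud1 and 0.486 for Creld2. At the low end were P4hb with 0.0974, Derl2 with 0.123, Derl1 with 0.125 and Ssr1 with 0.147. The first set, which holds Atf4 and 5 of its targets, spread several times as widely between mice of a group as the latter. Within the first set, Trib3, Chac1 and Derl3 had low levels, with medians of 0.819, 0.0587 and 1.26 TPM in controls given DMSO. The median over the 37 genes was 0.295, against 0.291 over 11499 genes with a median above 1 TPM. Single mice stood at the end of the range for many genes at once. Of the 37 genes, 19 had their highest value of the group in replicate 6 of the bortezomib-treated controls, 16 their lowest in replicate 6 of the DMSO-treated controls and 19 their lowest in replicate 2 of the DMSO-treated H77L mice. The median of the 37 deviations from the mean of the DMSO-treated controls ran from -0.22 to 0.27 (log2) over the 6 mice of that group, from 0.0036 to 0.50 in H77L and from 0.13 to 0.60 in C118F mice given DMSO. With bortezomib it ran from -0.041 to 0.43 in controls, from -0.017 to 0.27 in H77L and from 0.17 to 0.58 in C118F mice, so all groups overlapped the controls.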

How the data were processed

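Podocytes of 35 mice, 1 library for each separate animal, were sequenced as single-end poly(A) RNA with a SMART-Seq mRNA kit. Per the study's methods the authors trimmed reads with Trim Galore 0.6.7, aligned them with STAR to GRCm39 and counted them per gene with featureCounts 1.6.3, and the authors deposited TPM values. The strand setting and the step from counts to TPM are not given in the sources used here. The file holds no counts, so count models and counting intervals were not used and only relative depth could be estimated from it.

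Differences were tested with limma 3.58.1 in R 4.3.3 (lmFit, and eBayes with trend) on log2(TPM + 1), which understates changes of low genes. A fit held only the groups compared and the genes above 1 TPM in every mouse of at least 1 of them (of any group for the interactions). P-values were adjusted over all genes tested by the Benjamini-Hochberg method within each of 12 comparisons, and a gene was called at an adjusted p under 0.05. Values after ± are standard errors. Gene annotation and promoters were read from GRCm39.

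The 37 genes and all other lists were chosen with earlier results of these data known. Values for each mouse group are given for genes called in both lines under DMSO, for those called in a bortezomib comparison, and for Xbp1 and Atf4, and from the other lists the 3 genes with the lowest p-values over both lines. Other genes were named after their values were seen. Alternatives were a pseudocount of 0.1, no filter, all mice in 1 fit, equal medians, array weights, the mouse number as covariate, the study's cutoffs and leaving out each mouse. Names of the authors' groups were kept, with WT written as control. No other tables were used.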

Additional observations from a re-analysis of the deposited data

Results flagged for a closer look

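The lowest or highest mouse stood apart from the others of its group (gap over range above Dixon's 95% value) in 19 of 222 gene and group pairs, where chance gives about 1 in 20. Values are TPM, followed by the nearest other mouse of the group.

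In control mice given DMSO, Dnajc10 was lowest at 78.2 (104) and Nupr1 at 565 (809), and Trib3 was highest at 4.52 (1.36) and Chac1 at 2.55 (0.320). In H77L mice given DMSO, Manf was lowest at 47.5 (113) and Xbp1 at 333 (528), and Trib3 was highest at 10.2 (2.67), Asns at 58.1 (22.8) and Sesn2 at 16.5 (9.33). In bortezomib-treated controls, Sdf2l1 was lowest at 209.7 (300.2), while Atf4 was highest at 697 (237), Ppp1r15a at 1147 (384) and Derl1 at 254 (211). In bortezomib-treated H77L mice, Ern1 was lowest at 7.35 (11.5), and Derl1 was highest at 247 (199) and Derl2 at 73.2 (59.6). In bortezomib-treated C118F mice, Sdf2l1 was lowest at 286 (384), Xbp1 at 464 (695) and Sel1l at 139 (178).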

How the results depend on the processing

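Of 43 calls of a gene in a comparison, 24 held under every alternative other than the study's cutoffs, and none changed direction. At the study's cutoffs the count fell to 0 in each comparison that had calls: both lines against control under DMSO, both under bortezomib, and C118F against H77L under bortezomib. Adjusted for the mouse number, the count went from 15 to 9 in H77L against control under DMSO, from 9 to 5 in C118F against control under bortezomib and from 3 to 0 in C118F against H77L under bortezomib. The latter was also 0 without the filter and with all 35 mice in 1 fit, and 7 with array weights. The cause was not tested. A pseudocount of 0.1 lost no call.

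Leaving out 1 mouse at a time gave 14 to 17 calls in H77L and 9 to 13 in C118F against control under DMSO, 4 to 8 and 7 to 13 under bortezomib, 1 to 7 in C118F against H77L under bortezomib and 0 to 3 for bortezomib in H77L mice. The interaction of H77L with bortezomib gave 0 to 1, with 1 gene called without replicate 1 of the bortezomib-treated controls and without replicate 5 of the DMSO-treated ones. The 8 and the 13 under bortezomib came without replicate 6 of the bortezomib-treated controls. The 7 came without replicate 1 of the bortezomib-treated C118F mice, and 1 remained without replicates 3 or 4 of them or replicates 2 or 6 of the H77L mice. The other comparisons stayed at 0. No paired analysis was possible because the labels give each mouse its own number and no litter, batch or replicate number shared across groups. Some of these numbers are adjacent across groups, and what that means is not stated.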
